A study of Mus musculus with 12 samples.

Results

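The genes described here are 10 genes of the lysosomal proteolytic system of the mouse: the cysteine cathepsins Ctsb, Ctsc, Ctsh, Ctsl, Ctss and Ctsz, the aspartic cathepsin Ctsd, the serine carboxypeptidase Ctsa, the asparaginyl endopeptidase Lgmn (legumain) and the cathepsin inhibitor Cst3 (cystatin C). They were found on the Illumina MouseWG-6 v2 array as the probes annotated with 1 of these symbols, 19 probes in number. A gene was counted as measured when 4 or more of the 12 arrays gave 1 of its probes a detection p-value under 0.01. By this rule 8 of the 10 genes were measured, with 11 of the 19 probes, among 10031 measured genes in all. Ctsc and Ctsl lay below the filter.

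Total RNA came from brain, which the methods give as striatum, of BACHD mice at 5 months of age, with 1 array per mouse. BACHD mice carry full-length human mutant huntingtin, and the PBS mice carry it as well, so that no group lacks the disease gene. Of the 12 mice, 4 had received PBS, 4 an antisense oligonucleotide (ASO) against wig-1 and 4 a control ASO with like chemical modifications and no known target gene. The oligonucleotides were injected into the striatum. The paper describes the PBS mice as injected in the same way, while their sample labels read no treatment. The interval between injection and the harvest for the arrays is not given in the sources used here. The question of the comparison was which genes change when wig-1 mRNA, the product of Zmat3, is lowered.

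Cathepsins are made as inactive precursors, carried to the lysosome by mannose-6-phosphate receptors and activated there at acid pH, where they cut proteins into peptides and amino acids. Legumain cleaves after asparagine and processes several cathepsin precursors, and cystatin C, which is secreted, inhibits cysteine cathepsins. In the brain these enzymes are found in many cell types, and some of them, cathepsin S in particular, are known as genes of microglia and other phagocytes.

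Zmat3, the target, served as the check of the labels. Its log2 signal was 8.57, 8.60, 8.37 and 8.44 in the PBS mice, 6.89, 6.63, 6.77 and 5.95 in the wig-1 ASO mice and 8.48, 8.47, 8.53 and 8.31 in the control ASO mice. All 4 wig-1 ASO mice lay below all 8 others, and Zmat3 fell by 1.93 on the log2 scale against PBS (SE 0.18, adjusted p = 0.000842, limma), to 26.2% of the PBS level. Between 15228 and 17198 probes were detected per array. Among marker genes of other cells, the 7 measured choroid plexus markers varied most between mice of the same group, with a mean log2 change from the PBS mean of -1.67, 2.33, 2.34 and -1.46 in the 4 wig-1 ASO mice and -0.95, 1.47, -1.13 and 0.61 in the PBS mice. Wig-1 ASO replicate 1 had the lowest signal of its group for 6 of the 8 lysosomal genes. Its Zmat3 signal, 6.89, was the highest of its group, though below all 8 mice of the other groups. In bulk tissue a change in the number of cells of a type and a change in RNA per cell cannot be told apart.

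Against PBS, the wig-1 ASO mice had more RNA of most of these proteases. Ctsb, Ctss, Ctsz, Ctsd and Lgmn rose, and none of the 8 measured genes fell (limma, Benjamini-Hochberg adjusted p under 0.05 over 17188 probes). These are 5 of 8 genes, while 2.29% of all probes were called higher and 1.06% lower. Ctsh, Ctsa and Cst3 did not pass at their main probe, which is the probe of highest mean signal. At an unadjusted p under 0.05, 7 of the 8 genes were higher against 8.99% of all probes, and in 5 of the 8 (Ctsb, Ctss, Ctsz, Lgmn and Cst3) all 4 wig-1 ASO mice lay above all 4 PBS mice, against 5.56% of probes. The mean was higher in 8 of 8 genes, against 46% of probes. The median change of the 8 genes was 1.09 on the log2 scale, with a range from 0.18 to 1.87, and the median of all probes was -0.024. Under the study's own limits (a false discovery rate of 0.1, an unadjusted p up to 0.001, and 1.5-fold or more), 4 of 8 genes were higher against 1.8% of probes.

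The count of 5 depends on how the spread is estimated and on single mice. With the PBS and wig-1 ASO arrays alone in the fit it was 0, where 120 probes were called in all, against 577 with the control ASO arrays in the fit. When 1 mouse was left out, the count was 0 for each of replicates 1, 2 and 3 of the PBS group, and also 0 for each of replicates 2, 3 and 4 of the wig-1 ASO group. It was 1 when PBS replicate 4 was left out, 3 for each of the control ASO mice, and 6 for wig-1 ASO replicate 1. Calls over all probes moved in the same fits. They were 295, 186, 236 and 399 without PBS replicates 1 to 4. Without wig-1 ASO replicates 2, 3 and 4 they were 156, 228 and 181, and without replicate 1 of that group 1234. Leaving out a control ASO mouse gave 447 to 465.

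**Figure D1:**
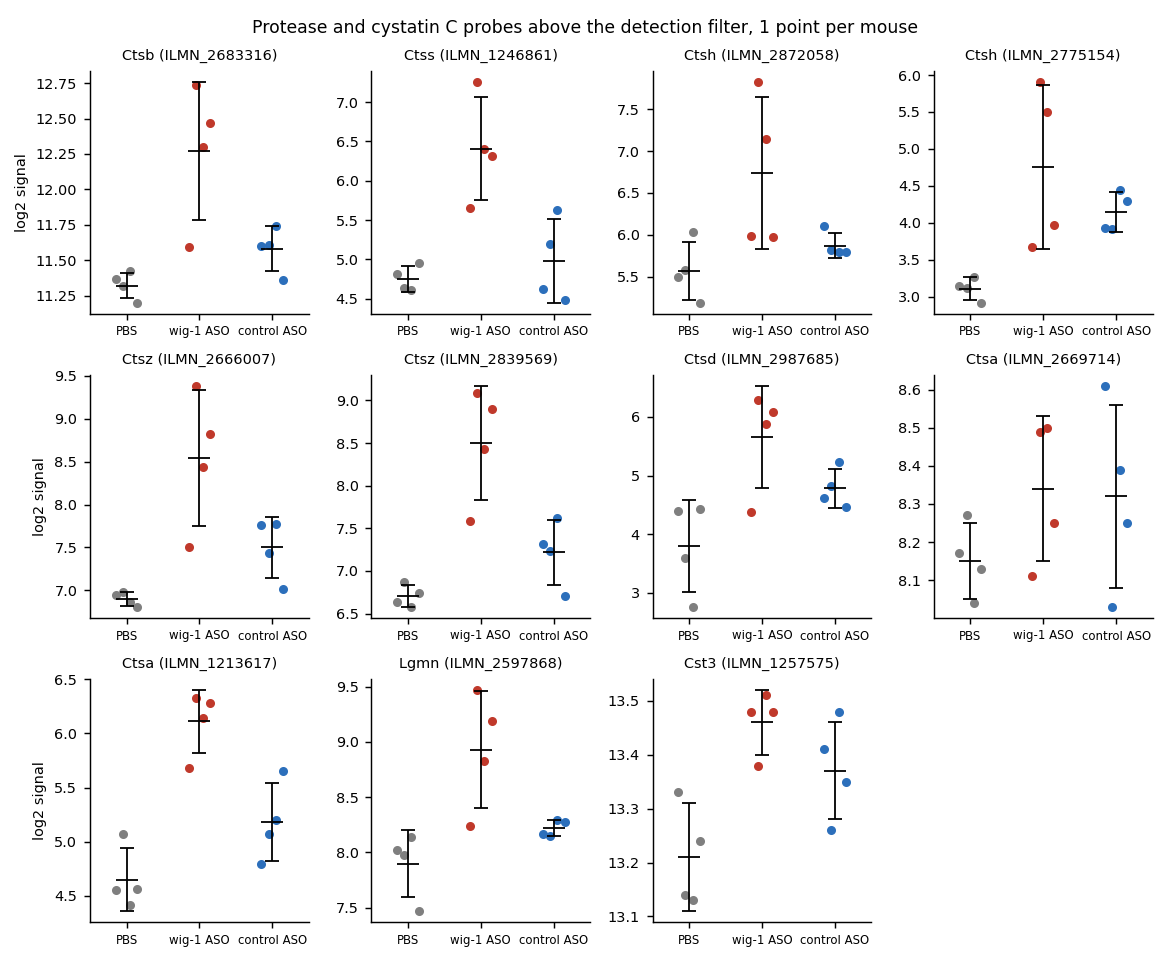
Log2 signal (vertical axis, a separate scale for each probe) of the 11 measured probes in the PBS, wig-1 ASO and control ASO mice, with 1 point per mouse and the mean and SD of 4 mice in black. The wig-1 ASO points of Ctsb, Ctss, Ctsz and Lgmn lie above all PBS points, and those of the Ctsa probe ILMN_2669714 do not.

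Ctss encodes cathepsin S, which stays active at neutral pH and trims the invariant chain of MHC class II. Its log2 signal was 4.81, 4.64, 4.61 and 4.96 in the PBS mice, 5.65, 7.26, 6.40 and 6.32 in the wig-1 ASO mice and 4.62, 5.20, 5.63 and 4.48 in the control ASO mice. All wig-1 ASO mice lay above all mice of both other groups, with wig-1 ASO replicate 1 only just above the highest control ASO mouse, whereas PBS and control ASO mice overlapped. Ctss rose by 1.65 against PBS (SE 0.32, adjusted p = 0.0219, limma), a 3.15-fold difference. This call was lost in 6 of the 12 fits with 1 mouse left out. The exact two-sided permutation test over 4 and 4 mice gave p = 0.029, the smallest p that it allows.

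Ctsz encodes cathepsin Z, a carboxypeptidase also called cathepsin X. The main probe read 6.95, 6.98, 6.87 and 6.81 in the PBS mice, 7.50, 9.38, 8.44 and 8.82 in the wig-1 ASO mice and 7.76, 7.44, 7.77 and 7.02 in the control ASO mice. The PBS mice were the lowest 4 of the 12, and wig-1 ASO replicate 1 fell within the range of the control ASO mice. Ctsz rose by 1.63 (SE 0.32, adjusted p = 0.0237, limma). The main probe lost its call in 7 of the 12 fits with 1 mouse left out. A second Ctsz probe, ILMN_2839569, rose by 1.79 (SE 0.29, adjusted p = 0.0106, limma), and it passed when any 1 of the 12 mice was left out.

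Ctsb encodes cathepsin B, an endopeptidase and dipeptidyl carboxypeptidase. Its log2 signal was 11.37, 11.32, 11.42 and 11.20 in the PBS mice, 11.59, 12.74, 12.30 and 12.47 in the wig-1 ASO mice and 11.60, 11.61, 11.74 and 11.36 in the control ASO mice. Wig-1 ASO replicate 1 lay above the PBS mice by little and inside the control ASO range, and the other 3 wig-1 ASO mice were above all the rest. Ctsb rose by 0.95 against PBS (SE 0.20, adjusted p = 0.0292, limma; exact permutation p = 0.029), which is 1.93-fold. This call was lost in 7 of the 12 fits with 1 mouse left out. A second Ctsb probe was detected on 0 of 12 arrays and gave no comparison.

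Lgmn read 8.02, 7.98, 8.14 and 7.47 in the PBS mice, 8.24, 9.47, 8.83 and 9.19 in the wig-1 ASO mice and 8.17, 8.15, 8.29 and 8.28 in the control ASO mice. The 4 control ASO mice lay close together, just above the PBS mice, and wig-1 ASO replicate 1 lay among them. Lgmn rose by 1.03 (SE 0.23, adjusted p = 0.0372, limma; exact permutation p = 0.029), or 2.04-fold. The rise lost its call in 11 of the 12 fits with 1 mouse left out, all but that without wig-1 ASO replicate 1, and under SAM, the test behind the siggenes package that the methods name.

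Ctsd encodes cathepsin D, the main aspartic protease of the lysosome. Its log2 signal was 4.39, 3.60, 2.76 and 4.43 in the PBS mice, 4.38, 6.29, 5.88 and 6.09 in the wig-1 ASO mice and 4.62, 4.82, 5.23 and 4.47 in the control ASO mice. The probe was detected on 3 of the 4 PBS arrays and on all 8 others, and wig-1 ASO replicate 1 lay within the PBS range. The fitted change was 1.87 (SE 0.45, adjusted p = 0.0462, limma), but the groups overlapped and the exact permutation test gave p = 0.086. As for Lgmn, only the fit without wig-1 ASO replicate 1 kept the call when 1 mouse was left out, and SAM did not call it. The change was 1.52 without PBS replicate 3, the lowest of its group, and 1.16 with an offset of 16 added to the signals.

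The 3 genes that did not pass at their main probe differed in size of change. Ctsh encodes an aminopeptidase, and its main probe read 5.50, 5.58, 6.03 and 5.19 in the PBS mice, 5.99, 7.83, 7.15 and 5.98 in the wig-1 ASO mice and 6.10, 5.82, 5.79 and 5.79 in the control ASO mice. Wig-1 ASO replicates 2 and 3 were far above all others, and replicates 1 and 4 lay within the range of the PBS mice. The change was 1.16 (SE 0.37, adjusted p = 0.117, limma), and that of a second probe, ILMN_2775154, was 1.65 (SE 0.42, adjusted p = 0.057, limma). The mice with high Ctsh, wig-1 ASO replicates 2 and 3, were also those of their group with high choroid plexus markers. The PBS mice had another order. PBS replicate 3, the highest in Ctsh at 6.03, had the lowest mean change of the choroid plexus markers, -1.13. PBS replicate 2, with the highest mean change of 1.47, read 5.58 for Ctsh. With the mean of those markers as a covariate, chosen after these values were seen, the main Ctsh probe changed by 1.08 (SE 0.30, adjusted p = 0.0895, limma) and the second by 1.54 (SE 0.30, adjusted p = 0.0254, limma).

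Ctsa, the protective protein, is a carboxypeptidase that also stabilises beta-galactosidase (Glb1) and neuraminidase (Neu1) in 1 complex. Its 2 measured probes differed. The main probe, ILMN_2669714, read 8.17, 8.27, 8.04 and 8.13 in the PBS mice, 8.11, 8.49, 8.50 and 8.25 in the wig-1 ASO mice and 8.61, 8.03, 8.39 and 8.25 in the control ASO mice. The 3 groups overlapped, and the change against PBS was 0.18 (SE 0.14, adjusted p = 0.537, limma). The other probe, ILMN_1213617, read 4.55, 5.07, 4.42 and 4.56 in the PBS mice, 5.68, 6.33, 6.14 and 6.28 in the wig-1 ASO mice and 4.79, 5.07, 5.20 and 5.65 in the control ASO mice. Every wig-1 ASO mouse lay above all others, and this probe rose by 1.46 (SE 0.21, adjusted p = 0.00779, limma), a call that held without any 1 of the 12 mice. The difference between the changes of both probes was 1.28 (exact permutation p = 0.029, 0.087 after adjustment over 9 such tests of Ctsa, Ctsh and Ctsz, chosen after the values were seen). Both probes are annotated with the same RefSeq transcript, and where on it each lies was not analysed here. Of 3 further Ctsa probes, ILMN_3120827 was detected in 1 wig-1 ASO mouse, and ILMN_2681631 and ILMN_3045359 on 0 arrays. With the mean of a gene's measured probes in place of the main probe, Ctsa joined the 5 genes that rose, with an adjusted p of 0.0105 (limma).

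Cst3 read 13.33, 13.14, 13.13 and 13.24 in the PBS mice, 13.48, 13.38, 13.51 and 13.48 in the wig-1 ASO mice and 13.41, 13.26, 13.48 and 13.35 in the control ASO mice. All wig-1 ASO mice lay above all PBS mice, by a margin of little size, and the control ASO mice lay across both. The change was 0.25 (SE 0.09, adjusted p = 0.166, limma; exact permutation p = 0.029), a 1.19-fold difference. Ctsl, a broad endopeptidase, was detected in 2 wig-1 ASO mice (3.33 and 3.02 in replicates 2 and 3) and on no array of the other groups, where its signal was between 1.35 and 2.63, so no fold is given. All 3 probes of Ctsc, the dipeptidyl peptidase that activates serine proteases of granulocytes, were detected on 0 of 12 arrays.

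Promoter sequence from RefSeq (build GRCm38.p6) was at hand for 8 of the 10 genes, with 10 promoters, as Ctsa and Lgmn have 2 each. Several of these genes rose together, so the 250 bases before each start were searched on both strands for 9 motifs, and 2 of them are shown, chosen after the matches and the expression values were seen. The first is the E-box CACGTG, the core of the element to which TFEB and its relatives bind, and longer forms of it were among the other 7 motifs and overlap it. It was found in 4 of the 10 promoters (Ctsd, Ctsl, Lgmn and Ctsa) against 6.02% of 32851 promoters in all. The second is GAGGAA, the core of the element of the myeloid factor PU.1, found in 3 of the 10 (Ctss, Ctsc and Cst3) against 23.3% of all promoters. The promoters of Ctsz held neither, and Ctsd is the only one with more than 1 E-box, whose first bases lie 245 and 98 bases before the start. In Lgmn the E-box begins 49 and in Ctsa 12 bases before the start, and in Ctss the GAGGAA begins 164 bases before it. Of the other 7 motifs, GGGCGG was in promoters of 6 of the 8 genes (32.7% of all promoters), TCACGTG in 3 (3.13%), GTCACGTG in 3 (1.85%), TCACGTGA in 2 (0.785%) and GAGGAAGT in 1 (2.44%), and TGACTCA (4.46%) and the full CLEAR element (0.24%) in 0. The counts for these other motifs are of genes, and Ctsa and Lgmn have 2 promoters each, while the shares are of single promoters. The counts and shares are therefore not alike. A match describes the letters and shows no binding. The 4 promoters below are those of 4 genes with a probe that rose, printed 5′ to 3′ on the strand of the gene, with E-box or GAGGAA in capitals, for Ctsd (chr7:142387828-142388077, minus strand), Lgmn (the start with the match, chr12:102439093-102439342, minus strand), Ctsa (the start with the match, chr2:164833523-164833772, plus strand) and Ctss (chr3:95526536-95526785, plus strand).
Ctsd: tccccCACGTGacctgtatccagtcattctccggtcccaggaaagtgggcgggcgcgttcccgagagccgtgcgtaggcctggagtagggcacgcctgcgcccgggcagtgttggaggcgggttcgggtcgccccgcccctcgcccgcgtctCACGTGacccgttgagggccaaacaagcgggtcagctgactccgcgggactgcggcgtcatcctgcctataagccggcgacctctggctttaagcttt
Lgmn: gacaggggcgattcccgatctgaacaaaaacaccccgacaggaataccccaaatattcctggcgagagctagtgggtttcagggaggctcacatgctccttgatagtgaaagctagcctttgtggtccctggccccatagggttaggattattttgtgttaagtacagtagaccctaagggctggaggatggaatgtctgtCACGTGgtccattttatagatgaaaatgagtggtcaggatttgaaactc
Ctsa: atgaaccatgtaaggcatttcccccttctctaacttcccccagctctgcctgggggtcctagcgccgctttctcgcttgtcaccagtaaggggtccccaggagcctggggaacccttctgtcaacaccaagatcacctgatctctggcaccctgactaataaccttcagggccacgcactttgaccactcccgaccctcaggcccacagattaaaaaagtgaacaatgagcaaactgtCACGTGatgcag
Ctss: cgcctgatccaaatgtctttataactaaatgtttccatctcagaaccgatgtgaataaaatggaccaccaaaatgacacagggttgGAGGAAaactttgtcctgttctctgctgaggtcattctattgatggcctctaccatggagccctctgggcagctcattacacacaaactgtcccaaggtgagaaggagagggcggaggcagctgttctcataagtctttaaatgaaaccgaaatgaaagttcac

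The response within the wig-1 ASO group had much the same order from gene to gene. Wig-1 ASO replicate 1 was the lowest of its group for 6 of the 8 genes and replicate 2 the highest for 6 of the 8. The mean change of the 8 genes from the PBS mean ran, for replicates 1 to 4 of the wig-1 ASO, 0.41, 1.65, 1.17 and 1.12, and was 0.41, 0.34, 0.59 and 0.17 in the control ASO mice. The lowest wig-1 ASO mouse thus lay within the control ASO range. These genes were measured on the same arrays, so they do not repeat the comparison independently.

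**Figure D2:**
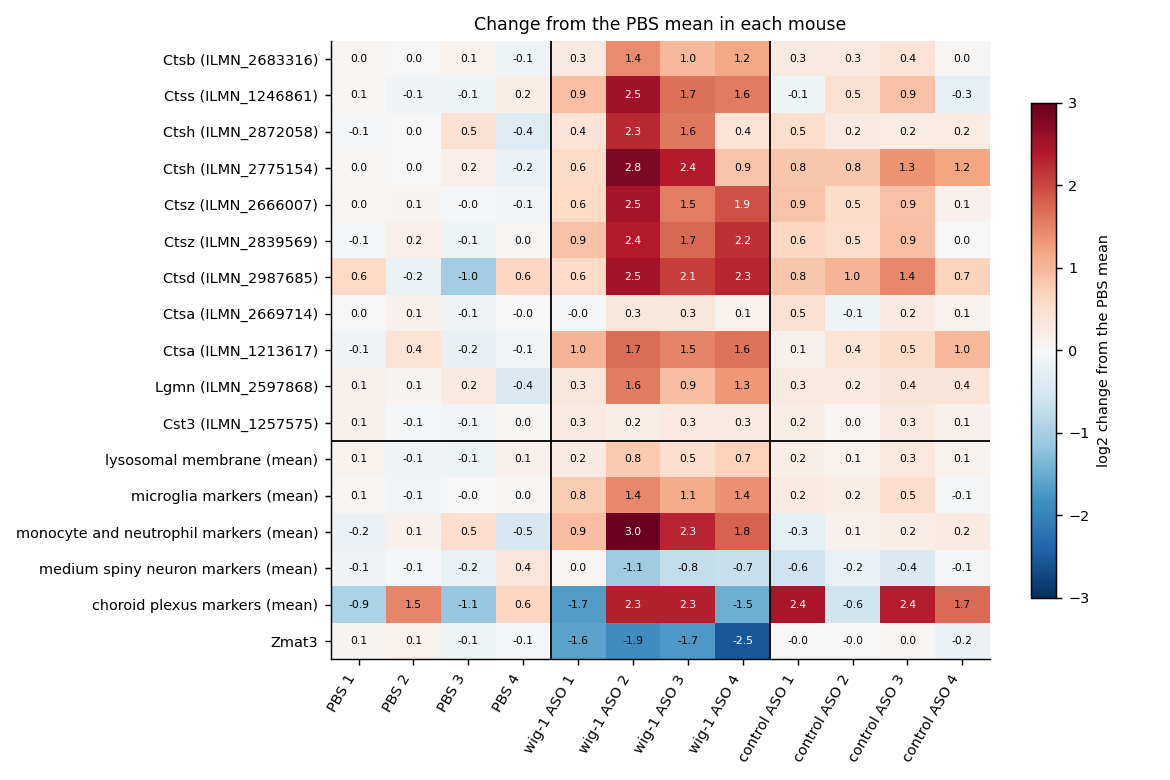
Log2 change from the PBS mean (colour and printed value) in each of the 12 mice, for the 11 measured probes of the proteases and cystatin C, for the means of 5 gene lists and for Zmat3. Wig-1 ASO replicate 2 is high in most protease rows and replicate 1 low. Zmat3 is low in all 4 wig-1 ASO mice, and least so in replicate 1. The choroid plexus row varies within every group.

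The control ASO shares the injection and the chemistry with the wig-1 ASO, but not its sequence. Against the control ASO, the genes were higher in the wig-1 ASO mice but none passed. With 1 wig-1 ASO sequence, an effect of lower wig-1 and other effects of that sequence cannot be told apart. The count was 0 of 8 (limma; SAM also called 0), against 0.634% of all probes called higher, while 5 of 8 genes (Ctsb, Ctss, Ctsh, Ctsz and Lgmn) were higher at an unadjusted p under 0.05, against 7.16% of probes. The mean was higher in 8 of 8 genes, against 45.7% of probes, and the median change was 0.79, with a range from 0.02 to 1.42. Ctss was nearest, with a change of 1.42 (SE 0.32, adjusted p = 0.0654, limma; exact permutation p = 0.029), and the only 1 of the 8 whose groups did not overlap, against 4.14% of probes. Ctss also met the study's limits, which 0.931% of probes met. Ctsz changed by 1.04 (SE 0.32, adjusted p = 0.167, limma), Ctsb by 0.69 (SE 0.20, adjusted p = 0.146) and Lgmn by 0.71 (SE 0.23, adjusted p = 0.191). Without wig-1 ASO replicate 1, 4 genes (Ctsb, Ctss, Ctsz and Lgmn) passed, and without any other single mouse 0 did. The second Ctsa probe changed by 0.93 (SE 0.21, adjusted p = 0.0654, limma), and its groups did not overlap.

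Between control ASO and PBS, 0 of 8 genes passed, as did 0% of all probes, by limma and by SAM. All 8 means were higher with the control ASO, against 51% of probes, and the median change was 0.28, with a range from 0.16 to 0.99. In the same comparison the means of all 7 choroid plexus markers were higher (median 1.53) and those of all 12 medium spiny neuron markers lower (median -0.37), with 0 passing in either list. The part of the spiny neuron or choroid plexus cells in the values of the proteases was not tested. A fit with the mean of the choroid plexus markers as a covariate, added after the data were seen, also called 0 of 8 genes here. In that fit the main Ctsh probe changed by -0.01. Ctsd alone reached an unadjusted p under 0.05 (3.23% of probes did so in the higher direction), with a change of 0.99 (SE 0.45, adjusted p = 0.728, limma). In Ctsz, Ctsd and Lgmn all 4 control ASO mice lay above all 4 PBS mice, against 2.32% of probes. The changes were 0.59 (SE 0.32) for Ctsz and 0.32 (SE 0.23) for Lgmn. The 3 comparisons share their mice in pairs, so their values are not independent of each other.

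**Figure D3:**
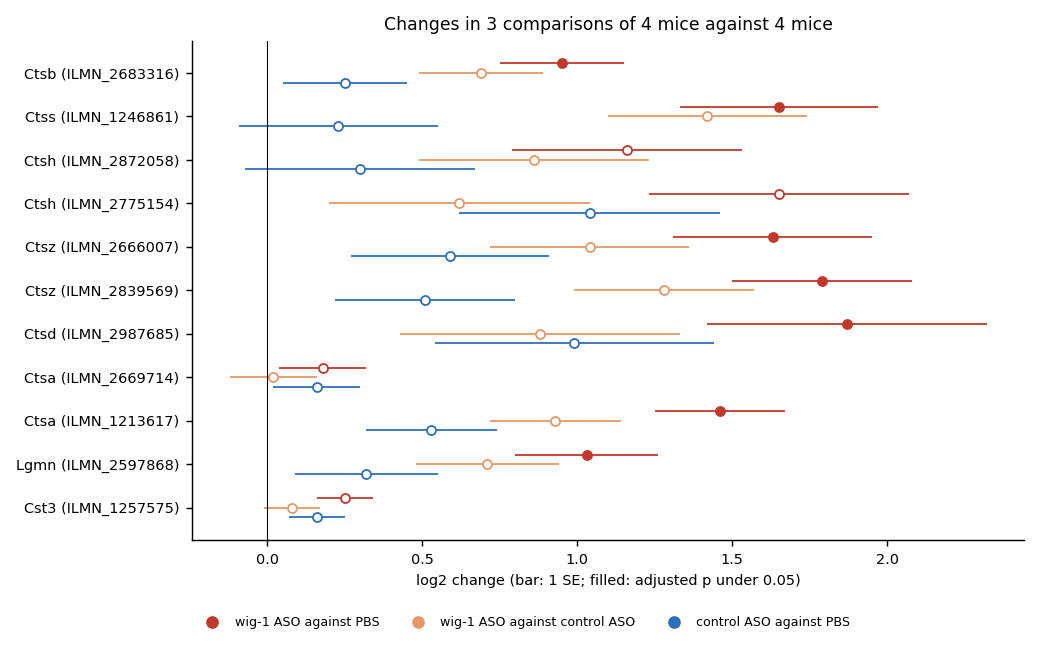
Log2 change with 1 SE (horizontal axis) of the 11 measured probes in the 3 comparisons of 4 mice against 4 mice, filled where the adjusted p was under 0.05. Filled points occur only in wig-1 ASO against PBS, where 7 probes of 6 genes passed, and the control ASO points lie to the right of 0 for all 11 probes.

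Among the other genes of the lysosomal pathway, the counts differed by class, and differences between classes were not tested. Of 3 further cathepsins measured (Ctse, Ctsf and Ctsk), 0 passed, with changes of 0.54 (SE 0.25), 0.30 (SE 0.15) and 0.39 (SE 0.24) against PBS. Ctsg, Ctsw and 4 placental cathepsins were detected nowhere, and Ctso lay below the filter. Of 5 other lysosomal peptidases, 2 rose: Dpp7, a dipeptidyl peptidase, by 0.74 (SE 0.15, adjusted p = 0.0264, limma) and Prcp, a carboxypeptidase, by 0.65 (SE 0.15, adjusted p = 0.0391). With 1 mouse left out, Dpp7 lost its call in 6 and Prcp in 9 of 12 fits, and the count was 0 for PBS replicates 1 to 3 and wig-1 ASO replicates 2 and 3, 1 for wig-1 ASO replicate 4 and each control ASO mouse, and 3 for wig-1 ASO replicate 1. Tpp1, the tripeptidyl peptidase lost in a childhood form of neuronal ceroid lipofuscinosis, changed by 0.62 (SE 0.15, adjusted p = 0.0525). Among the inhibitors, Cstb (stefin B, which acts inside the cell) rose by 0.74 (SE 0.16, adjusted p = 0.0328), the only 1 of 3 measured. Cstb lost its call in 7 of the 12 fits, those without a PBS mouse or without wig-1 ASO replicate 2, 3 or 4, where the count was 0, and the count was 2 without wig-1 ASO replicate 1. Cst7, an inhibitor found in activated microglia of the mouse, was detected in 3 wig-1 ASO mice, 1 control ASO mouse and 0 PBS mice, and its change did not pass (adjusted p = 0.242, limma). The partners of Ctsa did not pass: Glb1 changed by 0.56 (SE 0.16, adjusted p = 0.0869, limma) and Neu1 by 0.15 (SE 0.10).

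Membrane genes of the lysosome gave the highest count of these classes, which differ in size. Of 16 membrane genes, 7 rose and 0 fell, with a median of 0.46, namely Laptm5, Slc15a3, Lamp2, Slc11a1, Cd63, Scarb2 and Lamp1. Of all probes 2.29% were called higher. The medians of the 5 other lysosomal peptidases and the 3 other cystatins and stefins were larger, at 0.62 and 0.74. Laptm5, a lysosomal protein of blood-derived cells and microglia, rose by 1.51 (SE 0.21, adjusted p = 0.00691, limma), and Slc15a3, a peptide and histidine transporter, by 2.04 (SE 0.36, adjusted p = 0.0157). Lamp2, a receptor of chaperone-mediated autophagy, rose by 0.71 (SE 0.14, adjusted p = 0.0220), and Slc11a1, the metal transporter of the phagosome, by 1.42 (SE 0.29, adjusted p = 0.0257). With 1 mouse left out the count of 7 was between 1 (without wig-1 ASO replicate 2 or 4) and 7; leaving out PBS replicate 1 or 2 gave 2, and leaving out replicate 3 of either PBS or the wig-1 ASO gave 3. Of 10 genes that sort enzymes to the lysosome, 0 passed, with a median of 0.04, and the mannose-6-phosphate receptors Igf2r and M6pr changed by 0.35 (SE 0.17) and 0.07 (SE 0.09). Of 17 subunits of the vacuolar proton pump, 1 rose, Tcirg1, the subunit that osteoclasts and phagocytes use, by 1.35 (SE 0.31, adjusted p = 0.0391, limma), and the median of the 17 was 0.13. Tcirg1 lost its call in 8 of the 12 fits with 1 mouse left out, those for PBS replicates 1 to 4, wig-1 ASO replicates 2 to 4 and control ASO replicate 1, and the count was 0 to 2, with 2 for wig-1 ASO replicate 1. The transcription factors that drive lysosomal genes gave 1 measured gene, Tfe3, which changed by -0.01 (SE 0.17), while Tfeb, Tfec and Mitf were detected on 0 arrays. In the MHC class II group, where cathepsin S acts, H2-Ab1 rose by 1.89 (SE 0.39, adjusted p = 0.0269), while Cd74, the invariant chain, changed by 1.18 (SE 0.34, adjusted p = 0.0872) and 1 of the 4 measured genes passed. H2-Ab1 lost its call in 7 of the 12 fits, with any PBS mouse or wig-1 ASO replicate 2, 3 or 4 left out, where the count was 0, and the count was 3 without wig-1 ASO replicate 1. Against the control ASO, 1 membrane gene passed, Laptm5 (change 1.10, SE 0.21, adjusted p = 0.042), and 0 of the other pathway genes did. Laptm5 is also counted among the microglia markers below, so the 2 lists are not separate in this gene.

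**Figure D4:**
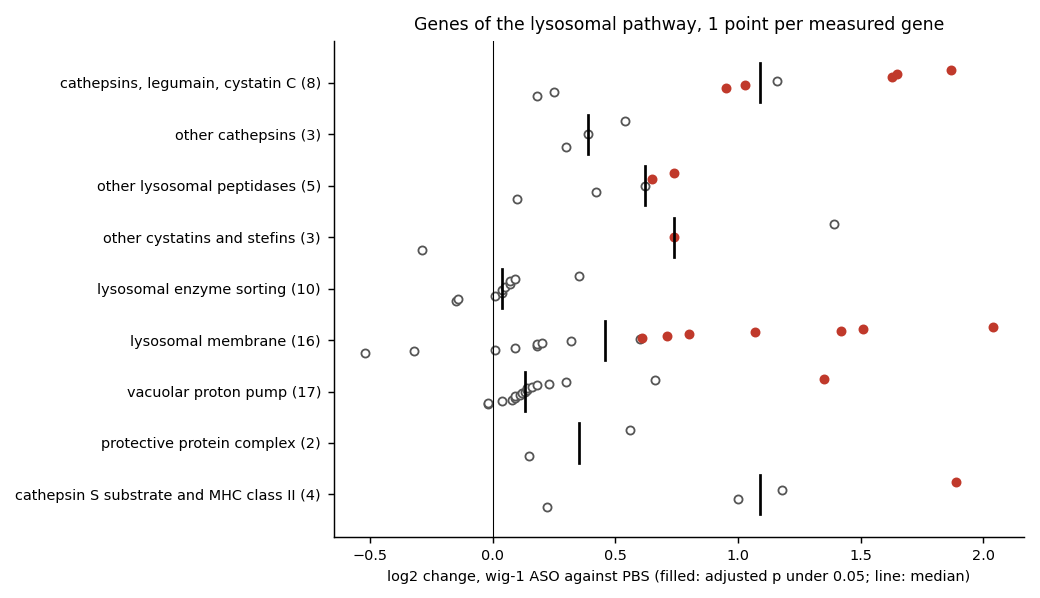
Log2 change of wig-1 ASO against PBS (horizontal axis) of each measured gene of 9 lysosomal gene groups, with the number of genes in brackets, filled where the adjusted p was under 0.05, and a line at the median. The protease group has a median of 1.09, the membrane group of 0.46, the sorting group of 0.04 and the proton pump of 0.13.

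Genes that mark phagocytes were higher in the same mice. Of 16 measured microglia markers, 11 rose against PBS and 7 against the control ASO, with medians of 0.94 and 0.81, and the count against PBS was between 7 and 13 with 1 mouse left out (7 when PBS replicate 2, PBS replicate 3 or wig-1 ASO replicate 2 was the mouse, and 13 when it was wig-1 ASO replicate 1). Their summed signal was between 2214 and 2519 in the PBS mice, 4017 and 7535 in the wig-1 ASO mice and 2297 and 3563 in the control ASO mice, which leaves the wig-1 ASO mice apart from both. C1qa rose by 2.18 (SE 0.25, adjusted p = 0.00286, limma), Trem2 by 1.95 (SE 0.33) and Tmem119 by 0.82 (SE 0.16), while Cx3cr1 changed by 0.69 (SE 0.23, adjusted p = 0.135), P2ry12 by 0.26 (SE 0.09, adjusted p = 0.132) and Siglech by -0.44 (SE 0.23, adjusted p = 0.338). Itgam and Ptprc, which define the lineage, lay below the filter, with detection on 1 and 0 arrays. The mean change of the microglia markers by mouse was, from replicate 1 to 4 of the wig-1 ASO, 0.77, 1.44, 1.12 and 1.38, so that replicate 1 was the lowest here as well. Of 6 measured monocyte and neutrophil markers, 3 rose against PBS (Ms4a7, Lyz2 and Plac8), whereas Ccr2, Chil3, Camp and Ngp were detected on 0 arrays. Plac8 was detected on 3 wig-1 ASO arrays, 1 control ASO array and 0 PBS arrays, so its change rests on PBS signals below detection. It lost its call in 9 of the 12 fits with 1 mouse left out, while Ms4a7 and Lyz2 kept theirs in all 12. S100a8, S100a9 and F13a1 did not pass against PBS, with changes of 1.62 (SE 0.60), 0.78 (SE 0.35) and 0.38 (SE 0.54). Against the control ASO, 1 of the 6 passed, S100a9, which changed by 1.71 (SE 0.35, adjusted p = 0.0473, limma). S100a9 was detected on 4 wig-1 ASO, 2 PBS and 0 control ASO arrays, so that change rests on control ASO signals below detection. The summed signal of the 6 measured markers was between 75.6 and 176 in the PBS mice, 334 and 2650 in the wig-1 ASO mice and 157 and 372 in the control ASO mice, whose range overlaps that of the wig-1 ASO mice. Lyz2 weighs most in this sum, with the highest mean log2 signal of the 6 in each group (6.20 with PBS and 9.86 with the wig-1 ASO). Of 9 astrocyte, 8 oligodendrocyte, 7 endothelial, 7 choroid plexus and 12 medium spiny neuron markers 0 passed, and the 12 spiny neuron markers were all lower in mean, with a median of -0.62. Of 9 thalamus and septum markers 1 passed, Rora, which rose by 0.53 (SE 0.12, adjusted p = 0.0413, limma) and lost its call in 10 of the 12 fits with 1 mouse left out, all but those for wig-1 ASO replicates 1 and 4. The part of any of these cells, choroid plexus included, in the change of the proteases was not tested. The fits with the choroid plexus covariate only describe how the estimates moved.

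The genes whose main probes followed the 7 measured proteases and cystatin C most closely were sought by the Pearson correlation with the mean of their standardised signals over the 12 mice. The first 5 were Lgals3 (galectin-3, r = 0.985), Ly9 (a leukocyte surface receptor, r = 0.983), Scarb2 (the receptor that carries glucocerebrosidase to the lysosome, r = 0.981), Nckap1l (a WAVE complex subunit of blood cells, r = 0.977) and Gusb (lysosomal beta-glucuronidase, r = 0.977). All 5 rose against PBS, Lgals3 by 3.76 (SE 0.62, adjusted p = 0.0113, limma) and Gusb by 1.77 (SE 0.33, adjusted p = 0.0205). After the group means were subtracted, Capg (an actin capping protein, r = 0.976), Litaf (r = 0.954), Lgals3 (r = 0.949), Ly9 (r = 0.947) and Gm8909 (r = 0.946) came first. Among the members themselves r with their mean was highest for Ctsz (0.979) and lowest for Ctsa (0.669) over the 12 mice, and after subtraction of the group means it was 0.939 for Ctsz and 0.14 for Cst3. The points share arrays and the 3 groups, and each member is part of the mean, so these values only describe likeness.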

How the data were processed

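RNA from 12 mice was hybridised to Illumina MouseWG-6 v2 arrays. The authors deposited intensities with detection p-values for 45281 probes, and a log2 value per probe, which equals log2 of the deposited intensity to within 5.58e-09. All 12 arrays hold the same sorted intensities, so that quantile normalization was already in them, and log2 of the deposited intensities was used as it stands. The methods name the packages lumi and siggenes. The background and normalization steps within lumi are not given in the sources used here. Quantile normalization removes any change in the overall level between arrays.

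The filter kept 17188 probes, those that 4 or more of the 12 arrays detected at p under 0.01. Symbols came from the platform annotation. Where a gene had several kept probes, the one with the highest mean was its main probe. Groups came from the sample labels. The 3 groups were fitted in 1 linear model per probe across all kept probes with limma 3.58.1 in R 4.3.3, with Benjamini-Hochberg adjustment over the kept probes and a limit of 0.05. For single genes an exact permutation test, two-sided, was added. SAM, the method of siggenes, was rebuilt with all arrangements of the labels and a false discovery rate limit of 0.1. The fits were tested on simulated data. The alternatives were SAM, the study's limits, no detection filter, detection on all 12 arrays, an offset of 16, cyclic loess, median centring, the 2 compared groups alone, array weights, the replicate number as a block, the mean of a gene's kept probes and leaving out each array.

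The text names every one of the 10 genes with its probes, the target Zmat3, up to 4 genes of each pathway list with the smallest adjusted p in wig-1 ASO against PBS, and the 5 genes of most similar pattern. Partners and markers named beyond these were chosen after their values were seen. The 10 genes and the lists were chosen with earlier results of these data known. Promoters are from RefSeq. The number of arrays limits the precision.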

Additional observations from a re-analysis of the deposited data

Results flagged for a closer look

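Of 33 groups of 4 mice, 1 held a value far from the others by Dixon's test. It is the main Ctsh probe, ILMN_2872058, in control ASO replicate 1, with a log2 signal of 6.10 against 5.79 to 5.82 in the other 3 mice of the group. The same mouse had the highest choroid plexus markers of its group, with a mean change of 2.44 against -0.59 to 2.36 in the others. Control ASO replicate 3, with the nearest mean change of 2.36, read 5.79 for this Ctsh probe. Such a limit marks about 1 in 20 groups by chance.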

How the results depend on the processing

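The number of the 8 genes called higher in wig-1 ASO against PBS, 5 in the comparison as reported, was 3 with SAM (Ctsb, Ctss and Ctsz), 2 with no detection filter (Ctss and Ctsz), 0 with the 2 groups alone, and 1 (Ctss) with the replicate number as a block. It was 4 to 6 with the other 8 alternatives, among them 4 with the choroid plexus covariate, which was added after the data were seen. With 1 array left out it was between 0 and 6. Against the control ASO, 0 as reported, it was 1 (Ctss) with detection on all 12 arrays and with the study's limits, 2 (Ctsb and Ctss) with the offset of 16 and with array weights, 0 with the other 8, and between 0 and 4 with 1 array left out. Control ASO against PBS gave 0 under all 12 alternatives and all 12 fits with 1 array left out. No change of a gene that passed turned its sign. The main Ctsa probe, which never passed against the control ASO, lay between -0.08 and 0.11 with 1 array left out, and turned from 0.02 to -0.03 and -0.04 without wig-1 ASO replicate 2 or 3, to -0.08 without control ASO replicate 2 and to 0.0 (just under 0) without control ASO replicate 4. The main Ctsh probe turned to -0.01 in control ASO against PBS with the choroid plexus covariate. Over all probes, the calls against PBS, 577 as reported, were 257 with no filter, 913 with the offset, 908 with array weights, 120 with the 2 groups alone and 233 with the block. Same-numbered mice had correlations of their deviations of -0.135 to 0.126 over 12 pairs, and differently numbered mice had -0.199 to 0.249. With 4 mice a group, these values cannot settle whether the numbers pair the mice. Without wig-1 ASO replicate 1 the calls against PBS over all probes were 1234, and without any other single mouse between 156 and 465. Why calls changed between settings was not tested.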
